A study of Homo sapiens with 4 samples.

Results

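Histones are the proteins around which DNA is wound, and their genes form a family of 2 kinds. The members were the genes whose symbol in the count files began with HIST1H to HIST4H, H2AF, H1F or H3F, and 88 of the 23228 listed genes met this rule. Of these, 72 carried HIST symbols and are called replication-dependent here, and 16 carried H2AF, H1F or H3F symbols and are called variants. The HIST members comprised 6 genes for linker histone H1, 17 for H2A, 20 for H2B, 14 for H3 and 15 for H4, by symbol. The H2B symbols include HIST2H2BA and HIST2H2BC, which are annotated as pseudogenes. Of 6 histone genes looked up outside these prefixes, 5 were in the files, and CENPA, the centromeric H3, was the only one that passed the filter on low counts.

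RNA sequencing covered cells of MDA-MB-231, a long-established human line derived from breast cancer without hormone receptors, with 2 libraries of cells expressing an shRNA against KDM1A and 2 of cells expressing a control shRNA. KDM1A, also called LSD1, is a demethylase of lysine residues on histone H3. All 4 libraries came from what the submitters call cancer stem cells of this line, sorted by aldehyde dehydrogenase activity (ALDEFLUOR), grown in MammoCult medium and made to express a hairpin stably through a lentiviral vector. The labels name 1 KDM1A hairpin vector and do not say whether a group's libraries stem from different cultures, so each p-value reflects library-to-library spread alone, which could be technical.

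Replication-dependent histone genes lie in clusters, have no introns and are transcribed when DNA is copied in S phase. Their messages are the known exception among animal mRNAs, since most end in a conserved stem loop bound by SLBP and carry no poly(A) tail. Variant histone genes mostly lie alone, have introns in many cases, give polyadenylated mRNA and are expressed through the cell cycle, so that their proteins can replace canonical histones at any time. A few replication-dependent genes are known to give polyadenylated mRNA as well, made by reading past the stem loop to a later end.

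The stem loop and the promoter are shown first because both bear on how these genes are expressed. The 16 bases of the histone stem loop were searched in GRCh37 on the coding strand within 200 bases after the stop codon, with the last loop base and the middle stem bases left free to vary. They were found in 64 of 67 coding replication-dependent members and in 1 of 16 variants, H2AFX. Stem loops of 3 members with many reads and of H2AFX are shown 5′ to 3′, with the 4 loop bases in capitals and the 6 stem bases on each side in lower case. HIST1H1C lies at chr6:26055972-26055987, HIST1H2BK at chr6:27114145-27114160, HIST2H2BE at chr1:149857738-149857753 and H2AFX at chr11:118965608-118965623, all on the minus strand of GRCh37.
HIST1H1C: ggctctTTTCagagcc
HIST1H2BK: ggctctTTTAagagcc
HIST2H2BE: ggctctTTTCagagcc
H2AFX: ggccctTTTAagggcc
The loop read TTTC in 50 replication-dependent members, TTTA in 9 and TTTT in 5. It began between 25 and 70 bases after the stop codon.

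Promoters were taken from RefSeq on GRCh38.p14 and covered 250 bases before to 50 bases after each start, and 79 of the 88 members matched an entry. Both strands were searched for CCAAT, for TATAAA and for the octamer ATTTGCAT, and overlapping matches of TATAAA on opposite strands were counted separately. CCAAT stood in 84.6% of 65 replication-dependent promoters, in 78.6% of 14 variant promoters and in 34.6% of all 35116 promoters in the table. Among replication-dependent promoters it was found in 100% of those of H1, H2A, H2B and H3 and in 23.1% of the 13 of H4. TATAAA stood in 66.2% of replication-dependent promoters, in 28.6% of variant promoters and in 11.5% of all promoters. The octamer stood in 77.8% of the 18 H2B and 68.8% of the 16 H2A promoters, in 0 of the 6 H1 and 0 of the 13 H4 promoters, in 7.14% of variant promoters and in 1.77% of all promoters. Some entries hold the same bases. HIST1H3D has the same stretch as HIST1H2AD, and divergent H2A and H2B genes share much of theirs. The family shares thus count some bases more than once.

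The 250 bases before the start are printed for 5 members whose values are described below: 4 that fell in KDM1A shRNA cells and HIST1H3B, whose few reads lay mostly in KDM1A shRNA libraries. Matches to the 3 motifs on either strand are in capitals. The coordinates on GRCh38.p14 are chr6:26056471-26056720 on the minus strand for HIST1H1C, chr6:26123922-26124171 on the plus strand for HIST1H2AC, and chr6:26157871-26158120 on the plus strand for HIST1H2BD. They are chr6:27146859-27147108 on the minus strand for HIST1H2BK and chr6:26032100-26032349 on the minus strand for HIST1H3B. The stretch before HIST1H2AC is shared with HIST1H2BC, which is transcribed in the opposite direction.
HIST1H1C: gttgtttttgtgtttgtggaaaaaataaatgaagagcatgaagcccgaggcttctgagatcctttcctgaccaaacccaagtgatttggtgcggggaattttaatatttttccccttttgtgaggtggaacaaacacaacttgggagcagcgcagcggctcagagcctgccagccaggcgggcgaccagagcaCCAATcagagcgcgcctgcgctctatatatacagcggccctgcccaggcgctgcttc
HIST1H2AC: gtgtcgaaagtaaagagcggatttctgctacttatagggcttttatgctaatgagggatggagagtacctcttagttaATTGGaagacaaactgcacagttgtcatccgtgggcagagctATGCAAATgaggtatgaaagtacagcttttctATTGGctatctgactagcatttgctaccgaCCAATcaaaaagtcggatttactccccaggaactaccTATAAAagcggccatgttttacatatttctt
HIST1H2BD: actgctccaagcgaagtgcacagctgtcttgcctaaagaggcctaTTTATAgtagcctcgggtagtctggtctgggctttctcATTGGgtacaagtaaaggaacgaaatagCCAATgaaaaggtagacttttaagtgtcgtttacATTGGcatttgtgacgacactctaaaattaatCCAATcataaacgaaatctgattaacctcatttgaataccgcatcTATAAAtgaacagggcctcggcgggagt
HIST1H2BK: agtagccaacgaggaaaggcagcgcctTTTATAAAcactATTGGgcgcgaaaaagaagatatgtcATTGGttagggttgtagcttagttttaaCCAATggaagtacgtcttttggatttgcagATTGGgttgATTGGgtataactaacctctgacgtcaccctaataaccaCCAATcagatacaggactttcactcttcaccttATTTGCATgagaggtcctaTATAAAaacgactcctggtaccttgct
HIST1H3B: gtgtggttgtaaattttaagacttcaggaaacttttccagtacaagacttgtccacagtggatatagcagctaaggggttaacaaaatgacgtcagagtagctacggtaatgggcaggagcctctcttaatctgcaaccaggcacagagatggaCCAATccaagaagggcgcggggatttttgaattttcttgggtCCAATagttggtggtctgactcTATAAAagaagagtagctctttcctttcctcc
The HIST1H2BK stretch held 6 matches to CCAAT, the HIST1H2BD stretch 4, the HIST1H2AC stretch 3, the HIST1H3B stretch 2 and the HIST1H1C stretch 1. The octamer was present before HIST1H2AC and HIST1H2BK. The promoter of H2AFY2, the variant with the lowest fold change, held none of the 3 motifs.

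Reads assigned to genes numbered 23902900 and 25761937 in the KDM1A shRNA libraries and 26923678 and 24250377 in the control libraries. Levels are given as CPM, counts scaled to a common library size after TMM scaling, and differences as log2 fold changes of KDM1A shRNA over control shRNA with their standard error (SE). A gene was called when its adjusted p from edgeR's quasi-likelihood test was under 0.05. KDM1A had 561 and 649 reads in KDM1A shRNA libraries, against 4660 and 4059 in control libraries, a log2 fold change of −2.81 (SE 0.05, edgeR adjusted p = 2.2e-14). The 9 genes known to be high in this line, such as VIM and CD44, summed to 6654 and 6748 CPM in KDM1A shRNA libraries and 5421 and 5322 CPM in control libraries. Of these 9, 7 were called higher and 2, CD44 included, were called lower, against 27.3% and 28.8% of all tested genes. Estrogen and progesterone receptor genes ESR1 and PGR stood at or below 0.371 CPM in every library, but KRT19, an epithelial keratin, reached 361 and 375 CPM with KDM1A shRNA and 279 and 289 CPM with control shRNA. The control libraries held reads of genes known to be deleted in MDA-MB-231: CDKN2A had 13 and 19 reads in KDM1A shRNA libraries and 323 and 329 in control libraries, and CDKN2A, CDKN2B and MTAP summed to 1.17 and 1.32 CPM and to 23.2 and 25.4 CPM in these groups. Of 12 marker genes of HEK293, a kidney line used to package lentivirus, 1 rose, 9 fell and 2 were not tested, with LIN28B at 0.668 and 0.697 CPM in KDM1A shRNA libraries and 23.8 and 21.4 CPM in control libraries. Both control libraries thus went against the label of their cell line to the same degree, no fit could be made without both, and the part of this difference in any histone result was not tested.

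Most histone reads came from the variants. Over the 4 libraries the 16 variants had 159086 reads and the 72 replication-dependent members had 9771. All 88 members held 0.163 and 0.167% of the gene reads in KDM1A shRNA libraries and 0.17 and 0.17% in control libraries. Replication-dependent members took 4.35 and 4.51% of the histone reads in KDM1A shRNA libraries and 7.13 and 6.99% in control libraries, with 95% Clopper-Pearson intervals no wider than 0.494 percentage points. These intervals cover counting error only. The replication-dependent share was lower in both KDM1A shRNA libraries than in either control library.

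The filter on low counts passed 21 members, 11 replication-dependent and 10 variant, and left 67 untested. Of the 21, 5 were called higher in KDM1A shRNA cells, 10 were called lower and 6 were not called, while 27.3% of all 14012 tested genes were called higher and 28.8% were called lower. More than 1 in 2 tested genes were thus called in these libraries (56.1%), and a call by itself did not set a histone gene apart. The median log2 fold change was −0.19 over the 21 members and −0.00468 over all tested genes. The called members include H2AFY2 and HIST1H3B, which reached the filter's count only in the libraries of the group where they were high, so that they had to differ to be tested at all. Called fold changes of 2 or more comprised 3 lower and 1 higher among the 21, both of these genes included, against 8.54% and 3.07% of all tested genes. The groups did not overlap for 17 of the 21 members, against 77.7% of all tested genes. Of these members 6 were higher and 11 lower, where 38.1% and 39.6% of all tested genes were.

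**Figure D1:**
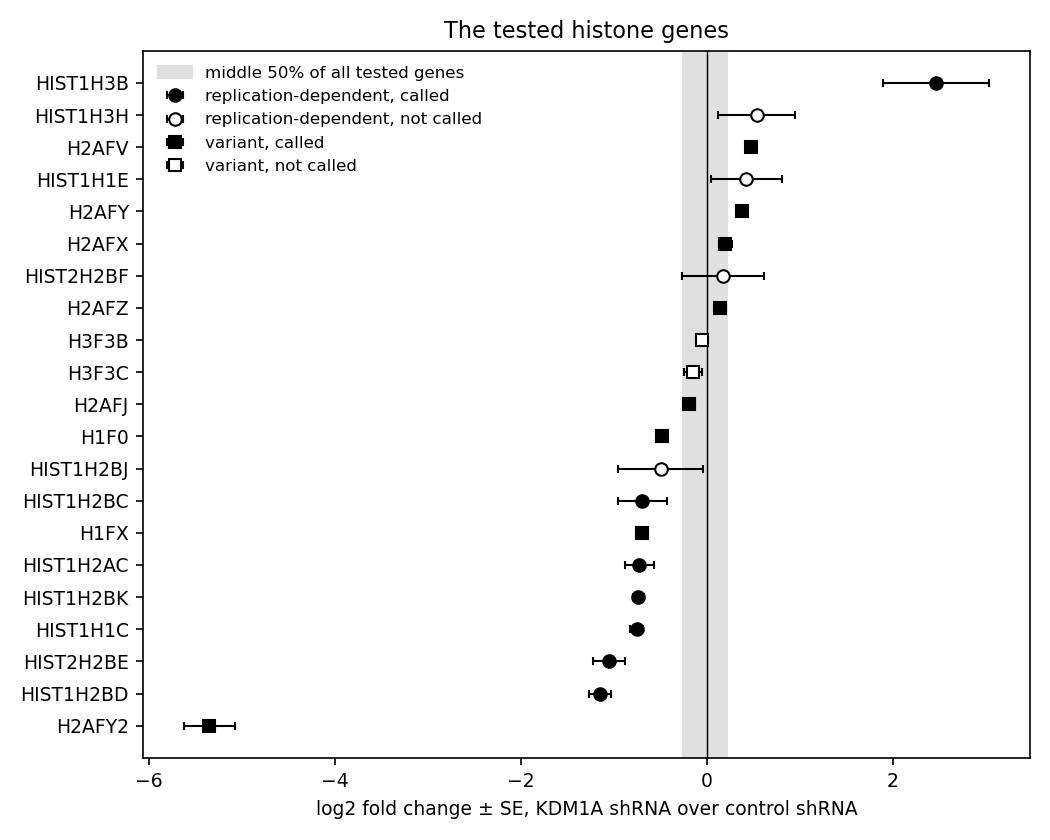
Log2 fold change of KDM1A shRNA over control shRNA (horizontal axis) for each of the 21 tested histone genes, with bars of 1 SE, circles for replication-dependent genes, squares for variants, filled symbols for called genes and a grey band from −0.26 to 0.22 for the middle 50% of all tested genes. H2AFY2 lies farthest to the left at −5.35 and HIST1H3B farthest to the right at 2.46, and the 6 replication-dependent members with over 100 reads lie between −1.15 and −0.69.

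The linker variants fell together. H1F0 encodes the linker histone H1.0, known for its accumulation in cells that have stopped dividing, and is on chromosome 22 at 38201236 to 38203439 (GRCh37), with 1 exon. It stood at 255.9 and 255.2 CPM in KDM1A shRNA libraries and at 352.5 and 360.4 CPM in control libraries. Both KDM1A shRNA libraries were below both control libraries, and the fold change was −0.48 on the log2 scale (SE 0.04, edgeR adjusted p = 4.6e-08). H1FX, the linker variant also called H1.10, stood at 57.0 and 58.4 CPM in KDM1A shRNA libraries and 87.9 and 99.5 CPM in control libraries. Its log2 fold change was −0.70 (SE 0.06, edgeR adjusted p = 1.8e-07), again without overlap. The other linker variants, H1FNT of sperm cells and H1FOO of oocytes, had 0 reads in all 4 libraries. Summed over the 4 linker variants, the level was 313 ± 0.529 CPM in KDM1A shRNA cells and 450.1 ± 13.8 CPM in control cells (SD, n = 2 each).

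The H2A variants did not all move in 1 direction. H2AFV and H2AFZ encode the paired forms of H2A.Z, a variant found at promoters and enhancers. H2AFV had 197 and 202 CPM in KDM1A shRNA libraries and 148 and 139 CPM in control libraries, a log2 fold change of 0.48 (SE 0.04, edgeR adjusted p = 2.9e-07). H2AFZ had 302 and 314.5 CPM in KDM1A shRNA libraries and 291 and 267 CPM in control libraries, a log2 fold change of 0.14 (SE 0.04, edgeR adjusted p = 0.012). For both genes the KDM1A shRNA libraries were the higher ones, but the H2AFZ call rested on KDM1A shRNA library 2, without which the adjusted p was 0.19. The difference between the 2 genes' fold changes was not tested.

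H2AFY and H2AFY2 encode the macroH2A proteins, which carry a large extra domain and mark silenced chromatin such as the inactive X chromosome. They moved in opposite directions. H2AFY, on chromosome 5, had 272 and 274 CPM in KDM1A shRNA libraries and 207 and 213 CPM in control libraries, a log2 fold change of 0.38 (SE 0.04, edgeR adjusted p = 8e-07). H2AFY2, on chromosome 10 at 71812300 to 71872038 (GRCh37) with 9 exons in the annotated transcript, had 6 and 3 reads in KDM1A shRNA libraries and 211 and 176 reads in control libraries. Nearly all of its reads were in the control libraries, and only these reached the filter's count. The level was 2.45% of control, or 40.8-fold lower, and the log2 fold change was −5.35 (SE 0.28, edgeR adjusted p = 8.4e-10). The size rests on few reads: the log2 fold change was −5.97 without KDM1A shRNA library 1 and −4.89 without library 2. With 3 reads, KDM1A shRNA library 2 was at the limit that a count of 0 allows, 0.117 CPM. H2AFY2 was 1 of 275 tested genes lower by 16-fold or more, and ranked 113 from the most negative. CDKN2A, at 5.06% of control, was in the same class, and the part of the unlike control libraries in the H2AFY2 value was not tested. Per kilobase of transcript, H2AFY reached 142 CPM in KDM1A shRNA cells and 109.5 in control cells, and H2AFY2 reached 0.0949 and 3.92, so that H2AFY2 was a minor form in both.

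The remaining H2A variants moved little. H2AFX encodes the variant that is phosphorylated beside DNA breaks, and it is the 1 variant member with a stem loop. It had 55.3 and 62.1 CPM in KDM1A shRNA libraries and 48.6 and 53.9 CPM in control libraries, a log2 fold change of 0.20 (SE 0.07, edgeR adjusted p = 0.022). The lower KDM1A shRNA library lay only just above the higher control library, and the adjusted p was 0.33 without KDM1A shRNA library 2 and 0.068 without control library 1. H2AFJ, a variant reported to accumulate in senescent cells, had 32.8 and 32.2 CPM in KDM1A shRNA libraries and 36.2 and 37.95 CPM in control libraries, a log2 fold change of −0.19 (SE 0.06, edgeR adjusted p = 0.019). That call was lost with either KDM1A shRNA library left out (adjusted p = 0.09 without library 1 and 0.15 without library 2) and without control library 2 (adjusted p = 0.051). H2AFB1, H2AFB2 and H2AFB3, near-identical genes on chromosome X that are known from testis, had 0 reads in every library. Summed over the 9 H2A variants, the level was 872 ± 18.2 CPM in KDM1A shRNA cells and 728 ± 15.03 CPM in control cells (SD, n = 2 each).

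H3F3A and H3F3B encode one and the same replacement H3 protein, which is placed into active chromatin outside S phase. H3F3B had 369 and 368 CPM in KDM1A shRNA libraries and 384 and 383 CPM in control libraries. The groups did not overlap, yet the difference was small and not called, with a log2 fold change of −0.06 (SE 0.03, edgeR adjusted p = 0.18). H3F3A was listed at 0 in all 4 libraries. Only 11.5% of its 100-base windows occur nowhere else in GRCh37. Its 0 is not taken as a measure of its expression, and what made the count 0 was not tested. H3F3C, an intronless copy of H3F3B, had 17.03 and 20.65 CPM in KDM1A shRNA libraries and 19.97 and 21.96 CPM in control libraries. Of the 100-base windows of H3F3C, 98.4% are found nowhere else in GRCh37. That search took exact matches only, so the likeness to H3F3B still leaves the origin of the reads uncertain. The groups of H3F3C overlapped, and it was not called (log2 fold change −0.15, SE 0.10, edgeR adjusted p = 0.2). It was called lower without control library 1 (adjusted p = 0.038) and without KDM1A shRNA library 2 (adjusted p = 0.046).

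**Figure D2:**
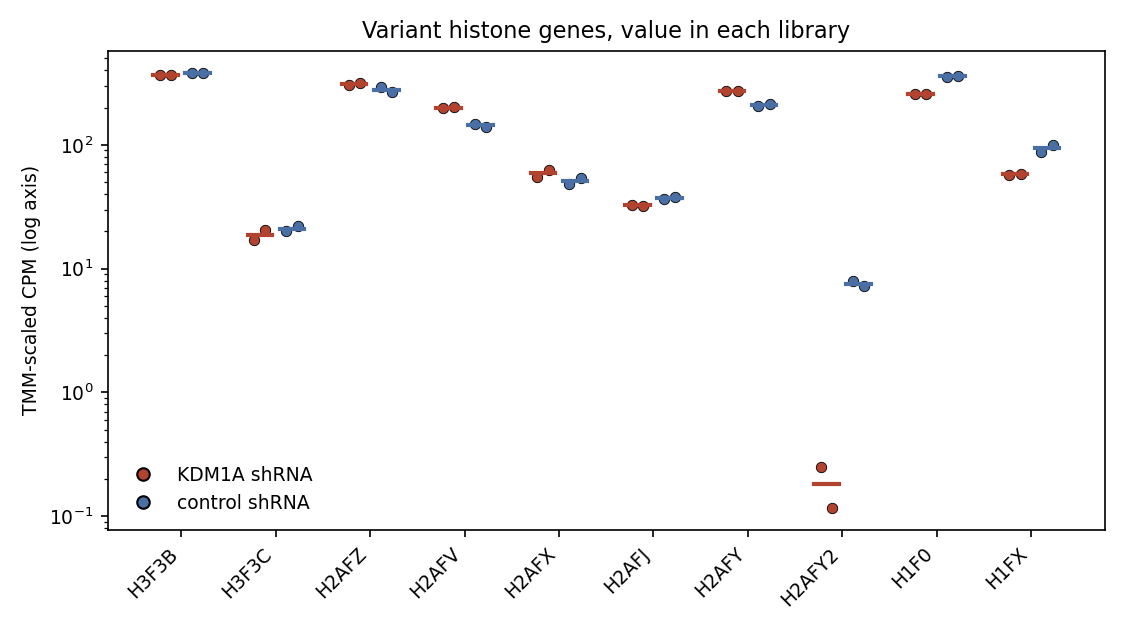
TMM-scaled CPM (vertical axis, logarithmic) of each tested variant histone gene in each library, KDM1A shRNA left of control shRNA. H2AFY2 drops to 0.25 and 0.116 CPM in the KDM1A shRNA libraries, against 7.88 and 7.25 CPM in the control libraries, while the other variants differ by far less.

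Of the 10 tested variants, 4 were called higher (H2AFV, H2AFX, H2AFY and H2AFZ), 4 lower (H1F0, H1FX, H2AFJ and H2AFY2) and 2 neither way, against 27.3% of all tested genes called higher and 28.8% called lower. The 4 called higher are H2A genes, and both tested linker genes were lower. The total over the 16 variants hardly differed, at 1572 ± 20.6 CPM in KDM1A shRNA cells and 1582 ± 0.218 CPM in control cells (SD, n = 2 each). Per kilobase of transcript, H2AFZ had the highest level of the variants in both groups, at 356 CPM in KDM1A shRNA cells and 322 CPM in control cells. In KDM1A shRNA cells H2AFY (142), H3F3B (136) and H1F0 (116) followed, and in control cells H1F0 (162), H3F3B (142) and H2AFY (109.5) followed. H1F0 thus ranked below H3F3B and H2AFY with KDM1A shRNA and above them with control shRNA.

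Replication-dependent members were lower as a sum. Their level was 70.9 and 74.9 CPM in KDM1A shRNA libraries and 121 and 119 CPM in control libraries. Both KDM1A shRNA libraries were far below both control libraries, at a log2 ratio of −0.72. The 6 members listed as known to give polyadenylated mRNA were also the 6 with over 100 reads in all. They were HIST1H1C, HIST1H2AC, HIST1H2BC, HIST1H2BD, HIST1H2BK and HIST2H2BE. They held 90.1 and 91.3% of the replication-dependent reads in KDM1A shRNA libraries and 95.4 and 95.1% in control libraries, with 95% Clopper-Pearson intervals no wider than 2.9 percentage points. The sum over all 72 members is therefore nearly the sum over these 6. The list of 6 was chosen with earlier results of these data known, so its match with the read counts is no independent result. It leaves out other members with an annotated end well past the stem loop, such as HIST1H2BJ and HIST1H3H. In RNA from many cells, fewer cells expressing a gene and less RNA per cell cannot be told apart.

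All 6 fell. The highest levels were those of the linker gene HIST1H1C, on chromosome 6 at 26055968 to 26056698 (GRCh37), and of the H2B gene HIST1H2BK. HIST1H1C had 24.6 and 25.8 CPM in KDM1A shRNA libraries and 44.1 and 40.9 CPM in control libraries, a log2 fold change of −0.75 (SE 0.07, edgeR adjusted p = 3.1e-07). HIST1H2BK, at 27114140 to 27114634 on the same chromosome, had 27.5 and 29.6 CPM in KDM1A shRNA libraries and 47.4 and 47.6 CPM in control libraries, a log2 fold change of −0.74 (SE 0.06, edgeR adjusted p = 1.9e-07). In both genes the KDM1A shRNA libraries lay close together and well below the control libraries. For HIST1H2BK, 77.5% of windows are found nowhere else, so its count misses reads from the rest of the message.

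HIST1H2BD and HIST2H2BE, both H2B genes, fell by more than 2-fold. HIST1H2BD had 127 and 133 reads in KDM1A shRNA libraries and 323 and 270 in control libraries, at 5.23 ± 0.105 CPM and 11.6 ± 0.658 CPM (SD, n = 2 each). Its log2 fold change was −1.15 (SE 0.12, edgeR adjusted p = 1.1e-06). HIST2H2BE, in the smaller cluster on chromosome 1, had 51 and 61 reads in KDM1A shRNA libraries and 121 and 118 in control libraries, a log2 fold change of −1.06 (SE 0.17, edgeR adjusted p = 0.00011). Neither gene's groups overlapped, nor did those of 77.7% of all tested genes. HIST2H2BE was short of 2-fold without KDM1A shRNA library 1, at −0.98.

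HIST1H2AC and HIST1H2BC form a divergent pair that shares the promoter printed above. HIST1H2AC had 83 and 106 reads in KDM1A shRNA libraries and 155 and 165 in control libraries, a log2 fold change of −0.73 (SE 0.15, edgeR adjusted p = 0.001). HIST1H2BC had 22 and 37 reads in KDM1A shRNA libraries and 55 and 43 in control libraries, a log2 fold change of −0.69 (SE 0.27, edgeR adjusted p = 0.038). Both members of the pair were lower, but HIST1H2BC was the least certain of the 6. Its adjusted p was 0.29 without KDM1A shRNA library 1, with a log2 fold change of −0.42, and 0.14 without control library 1.

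**Figure D3:**
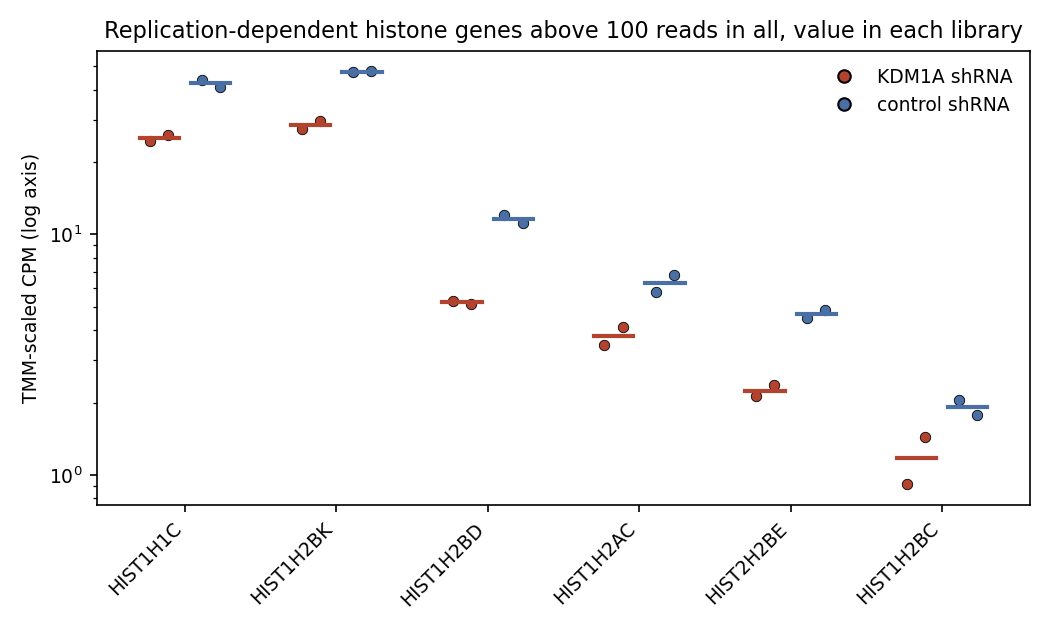
TMM-scaled CPM (vertical axis, logarithmic) of the 6 replication-dependent histone genes with over 100 reads in all, in each library, KDM1A shRNA left of control shRNA. Every KDM1A shRNA point lies below both control points of the same gene, from HIST1H2BK near 28.5 against 47.5 CPM down to HIST1H2BC near 1.18 against 1.91 CPM.

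The other 66 replication-dependent members had few reads. Together they had 168 and 168 reads in KDM1A shRNA libraries and 150 and 142 reads in control libraries, or 6.76 ± 0.356 CPM and 5.73 ± 0.179 CPM (SD, n = 2 each). Both KDM1A shRNA libraries were slightly above both control libraries, at a log2 ratio of 0.24 where the 6 had −0.79. The split follows the list of 6, so this contrast is a description only. Of these 66 members 29 had 0 reads in every library, which allows up to 0.126 and 0.117 CPM in KDM1A shRNA libraries and 0.111 and 0.124 CPM in control libraries for each of those whose sequence is unique. The other 37 had 1 to 100 reads in all, and 5 passed the filter. Of these 5, 1 was called higher and 0 were called lower, against 27.3% and 28.8% of all tested genes.

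The one called was HIST1H3B, a gene for the canonical H3 protein on chromosome 6 at 26031817 to 26032327 (GRCh37). It had 16 and 12 reads in KDM1A shRNA libraries and 3 and 2 reads in control libraries, a log2 fold change of 2.46 (SE 0.57, edgeR adjusted p = 0.0021). The gene passed the filter only through the KDM1A shRNA libraries, so it had to differ, and the control counts sit at or below the floor of 3 reads. HIST1H3C, which lies near it in the cluster, was not tested and had 13 and 9 reads in KDM1A shRNA libraries and 5 and 5 in control libraries. HIST1H3H had 13 and 14 reads in KDM1A shRNA libraries and 9 and 10 in control libraries, and was not called (log2 fold change 0.54, SE 0.42, edgeR adjusted p = 0.29). Other H3 members went the other way, with HIST1H3A at 1 and 2 reads in KDM1A shRNA libraries and 5 and 2 in control libraries, and HIST1H3E at 0 and 0 against 3 and 0 in control libraries.

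By family, the 14 H3 members summed to 44 and 38 reads in KDM1A shRNA libraries and 25 and 19 in control libraries, without overlap. The 15 H4 members summed to 16 and 25 reads in KDM1A shRNA libraries and 10 and 19 in control libraries, with overlap, and none was tested. The 16 H2B members outside the 6 summed to 51 and 45 reads in KDM1A shRNA libraries and 66 and 53 in control libraries, or 2.13 and 1.74 CPM and 2.46 and 2.18 CPM, lower without overlap. HIST1H1E, which encodes the linker histone H1.4, had 19 and 19 reads in KDM1A shRNA libraries and 20 and 9 in control libraries and was not called (log2 fold change 0.43, SE 0.39, edgeR adjusted p = 0.37). HIST1H2BJ (9 and 13 reads in KDM1A shRNA libraries, 23 and 9 in control libraries) and HIST2H2BF (12 and 10, against 9 and 11 in control libraries) overlapped between groups and were not called either, at log2 fold changes of −0.50 and 0.17 (edgeR adjusted p = 0.37 and 0.76).

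A few untested members stood in 1 group only, or nearly so, and are named here after their values were seen. HIST1H2AB had 5 and 3 reads in KDM1A shRNA libraries and 0 in both control libraries. HIST3H2A, a member of the small cluster of HIST3 genes on chromosome 1, had 0 and 1 read in KDM1A shRNA libraries and 6 and 8 in control libraries. HIST1H2BN had 4 and 5 reads in KDM1A shRNA libraries and 18 and 9 in control libraries. At these depths a few reads decide the direction.

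Reads were compared with the annotated end of the message. The stem loop sits near the end of a processed histone mRNA, and an annotated end 100 or more bases past it marks a longer form. Such an end was annotated for 17 replication-dependent members, whose median was 34 reads over the 4 libraries, and 4 of them had over 100 reads. The 47 with a stem loop and no longer end had a median of 2 reads, and 2 of them, HIST1H1C and HIST1H2BK, had over 100. With these 2 the group without a longer end had more reads in sum, 7616 against 2111 for the 17. RNAs known to carry no poly(A) tail were also scarce: 12 of 19 listed were in the files, and they summed to 2.55 and 4.15 CPM in KDM1A shRNA libraries and 2.39 and 5.15 CPM in control libraries, with TERC, the telomerase RNA, at 0 and 1 reads in both groups. RMRP, the RNA part of RNase MRP, had 24 and 47 reads in KDM1A shRNA libraries and 38 and 80 in control libraries, library 2 being the higher in each. The labels' protocol names a TruSeq total RNA kit and the design text a TruSeq RNA preparation, and neither says whether poly(A) RNA was selected. The part of library preparation in the levels of stem loop messages was not tested.

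The counting also limits what these genes can show. HTSeq set aside reads that aligned at more than 1 place. Their alignments were 29.8 and 29.7% of everything counted in KDM1A shRNA libraries and 32.2 and 31.9% in control libraries. In these shares 1 read can count more than once, so they are not shares of reads. Each annotated transcript was cut into windows of 100 bases, the read length, and each window was looked up in GRCh37 on both strands. Of 69 replication-dependent members with windows, 50 had every window at 1 place only, and 12 had under 50% of such windows. The 12 included the duplicated chromosome 1 genes HIST2H2AA3, HIST2H2AA4, HIST2H3A, HIST2H3C, HIST2H4A and HIST2H4B, which had no unique window and were listed at 0 throughout. Of the 12, 8 had 0 reads, and for the 6 with no unique window a 0 says nothing of expression. Among the 50 with all windows unique, 19 also had 0 reads and 31 had at least 1, so that a 0 was also found where every window is unique. All 4 variants with under 50% unique windows, H2AFB1, H2AFB2, H2AFB3 and H3F3A, were listed at 0.

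**Figure D4:**
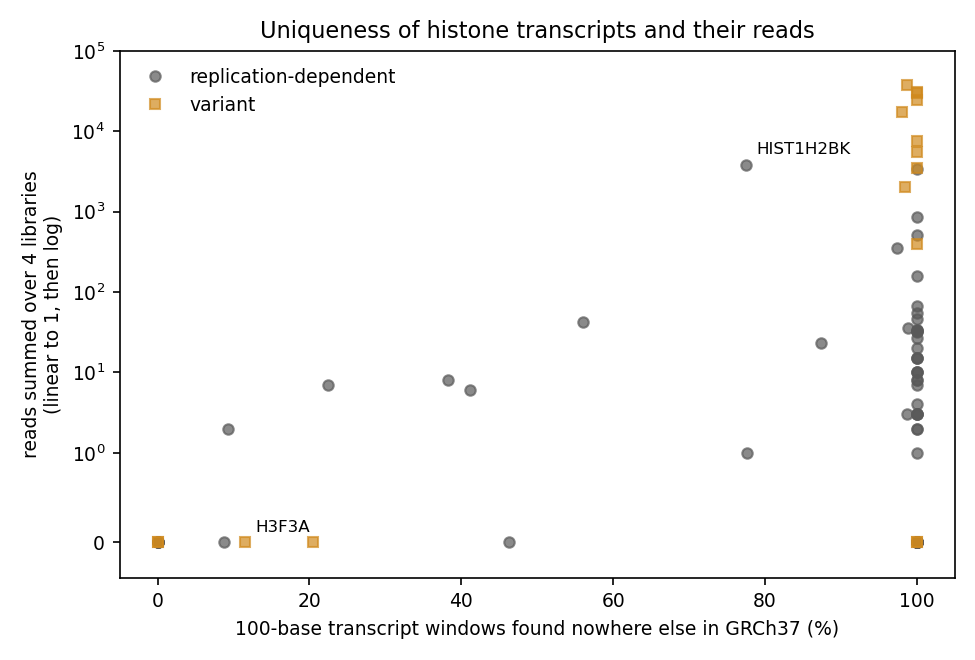
Share of each member's 100-base windows found at 1 place only in GRCh37 (horizontal axis, percent) against its reads summed over the 4 libraries (vertical axis, linear to 1 and logarithmic above), with circles for replication-dependent genes and squares for variants. Of the replication-dependent members with every window unique, 19 sit at 0 reads, and the members with no unique window all sit at 0.

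The HIST1 cluster on chromosome 6 spans 2138 kb in GRCh37 and holds 52 members with a position, of which 19 had 0 reads. HIST1H2BF, HIST1H2BG and HIST1H4F have no position in the annotation used and are not counted here. Gaps of over 250 kb divide it into 4 blocks of 2, 29, 5 and 16 members. The block of 29, from HIST1H1A to HIST1H4H, had 5169 reads, and HIST1H1C held 3427 of these. The block of 5, from HIST1H2BJ to HIST1H2AH, had 3945 reads, of which HIST1H2BK held 3846. HIST1H2AH, which starts beside HIST1H2BK and runs the other way, had 6 and 6 reads in KDM1A shRNA libraries and 1 and 2 in control libraries. A gene of high level thus had neighbours with almost no reads. The 12 positioned members in a row from HIST1H4D to HIST1H2BI, over 85 kb, had 3 reads in all and 11 of them had 0. RefSeq on GRCh38.p14 places HIST1H2BF, HIST1H2BG and HIST1H4F in the same stretch, and with them it held 15 members, 13 at 0, and 4 reads. This stretch was chosen after its values were seen. The testis genes HIST1H2AA and HIST1H2BA, alone at one end of the cluster, had 0 reads.

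**Figure D5:**
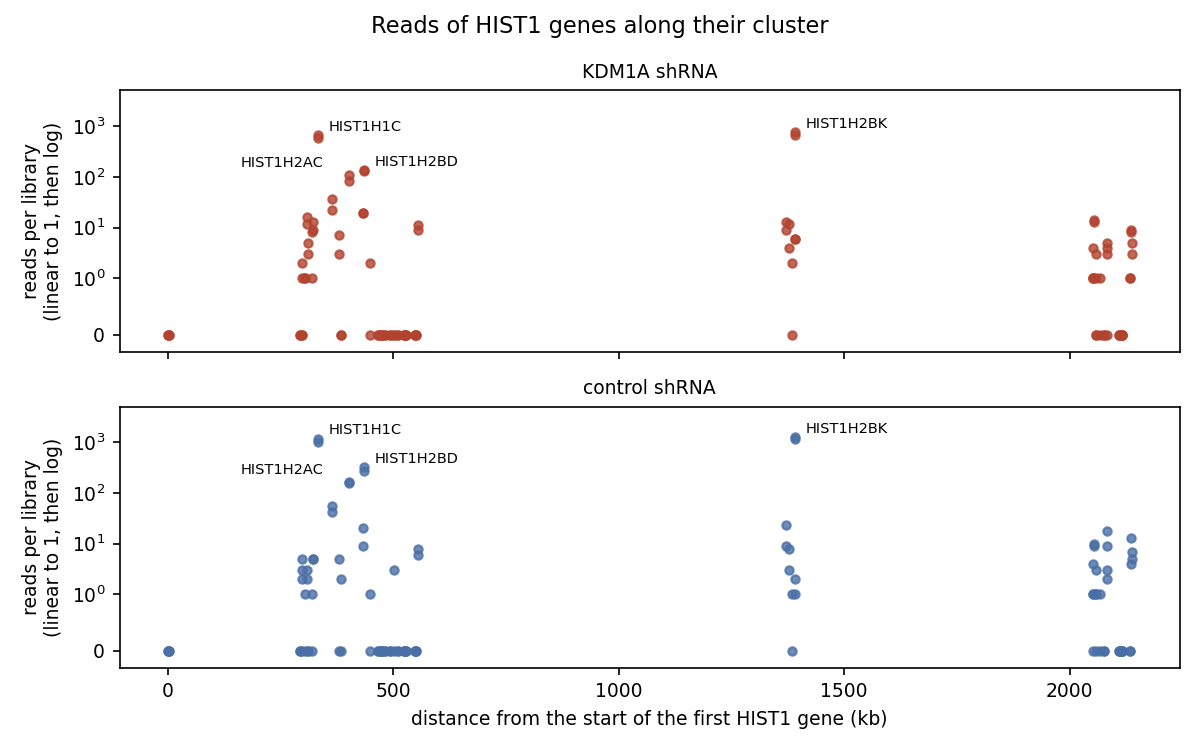
Reads of each HIST1 gene along the cluster (horizontal axis, kb from the start of the first gene; vertical axis, reads per library, linear to 1 and logarithmic above), with KDM1A shRNA on top and control shRNA beneath. HIST1H1C and HIST1H2BK tower over the rest in both panels, and the 12 positioned genes from HIST1H4D to HIST1H2BI lie at or near 0.

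Genes that make histone mRNA were examined next, from a list of 33 that all passed the filter. Of these, 8 rose, 7 fell and 18 were not called, with a median log2 fold change of 0.02. Over all tested genes 27.3% were called higher and 28.8% lower. The risers with the smallest p were SRRT (0.42), NCBP1 (0.41), ERI1 (0.29) and CSTF1 (0.24), on the log2 scale. SRRT, or ARS2, and NCBP1 act at the mRNA cap, and ERI1 is the exonuclease that trims histone mRNA ends. The fallers were led by CRAMP1L (−0.36) and ZCCHC6 (−0.30), which adds uridines to RNA ends, followed by NCBP2 (−0.17) and FIP1L1 (−0.18). NCBP2 reached an adjusted p of 0.07 and FIP1L1 of 0.28 without KDM1A shRNA library 2, and NCBP2 of 0.05 without library 1. SLBP, the stem loop binding protein, had 116 and 115 CPM in KDM1A shRNA libraries and 108 and 107 CPM in control libraries (log2 fold change 0.11, SE 0.04, edgeR adjusted p = 0.04). The SLBP call was lost in 7 of the 14 other fits, among them those without KDM1A shRNA library 1 or 2. NPAT, the activator of replication-dependent histone genes, had 60.2 and 60.9 CPM in KDM1A shRNA libraries and 57.6 and 54.9 CPM in control libraries and was not called (log2 fold change 0.11, edgeR adjusted p = 0.11), though it was without control library 1 (adjusted p = 0.035). No gene of this list changed by 2-fold.

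Histone chaperones carry histones to DNA, and all 34 listed passed the filter: 14 rose, 7 fell and 13 were not called, with a median log2 fold change of 0.01, against 27.3% higher and 28.8% lower over all tested genes. DNAJC9, a chaperone of H3 and H4, had 54.9 and 54.7 CPM in KDM1A shRNA libraries and 32.3 and 29.5 CPM in control libraries (log2 fold change 0.83, SE 0.06, edgeR adjusted p = 5.1e-08). TONSL, which binds newly made H4, had a log2 fold change of 0.70, ASF1B, which hands H3 and H4 to other chaperones in S phase, 0.47, and SUPT6H 0.43. UBN2, a subunit of the HIRA complex for the replacement H3, had 26.2 and 23.9 CPM in KDM1A shRNA libraries and 44.5 and 36.3 CPM in control libraries (log2 fold change −0.69, SE 0.09, edgeR adjusted p = 1.2e-05). RBBP4 (−0.22), EP400 (−0.20) and DAXX (−0.19) followed, and DAXX was not called without KDM1A shRNA library 2 (adjusted p = 0.14). CENPA had 21.6 and 21.0 CPM in KDM1A shRNA libraries and 18.7 and 19.0 CPM in control libraries and was not called (log2 fold change 0.18, edgeR adjusted p = 0.063).

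Genes of S phase, when replication-dependent histones are made, were mostly higher. Of 39 listed and tested, 28 rose, 1 fell and 10 were not called, with a median log2 fold change of 0.28, against 27.3% higher and 28.8% lower over all tested genes. MCM3, part of the replicative helicase, had 418 and 422 CPM in KDM1A shRNA libraries and 270.0 and 270.3 CPM in control libraries. TYMS, which makes thymidylate, had a log2 fold change of 0.66, POLA1 of DNA polymerase alpha 0.72 and CCNE2, a cyclin of the S phase start, 0.82. The faller was CDC25A (−0.18), which was not called without KDM1A shRNA library 1 (adjusted p = 0.35) or control library 1 (adjusted p = 0.052). The 6 replication-dependent members of high count thus stood lower in libraries where most S phase genes stood higher. The other 66, with few reads, summed slightly higher in KDM1A shRNA cells (log2 ratio 0.24), though the H2B members among them summed lower (−0.26). The part of S phase in the histone values was not tested.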

How the data were processed

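The deposited values are raw counts, in which the authors gave each gene symbol the whole number of reads that HTSeq assigned to it in a library. The submitters' processing notes name hg19 as the build and, among the tools, CASAVA 1.8.2 and TopHat2 2.0.8b. The annotation version and the strand setting are not given in the sources used here. Whether reads of antisense genes were kept apart is therefore not known. Between 230835 and 268057 reads per library were set aside by HTSeq as ambiguous. Those reads, and reads aligned at more than 1 place, were not counted for any gene. The 5 HTSeq summary lines were left out of library sizes. Depth was between 23902900 and 26923678 gene reads per library.

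Counts of all genes were fitted with edgeR 4.0.16 in R 4.3.3 (TMM scaling, filterByExpr with a minimum count of 10 and a minimum total of 15, quasi-likelihood test, no covariate). Benjamini-Hochberg adjustment ran over all 14012 tested genes, with a threshold of 0.05, and SE is the log2 fold change divided by the root of the F statistic. The fit was also run on simulated counts in which few genes differed, so that run does not give the error rate in libraries as unlike as these. DESeq2 1.42.0, limma 3.58.1 (voom), other scalings and filters, gene length offsets, a replicate block and each library left out were tried. Positions, transcript lengths and windows come from GRCh37 with GENCODE lifted to that build, which matched 85 of the 88 members, and promoters come from RefSeq on GRCh38.p14. Sums, shares and list medians are descriptions with no test. With 2 libraries per group an exact permutation test cannot go below p = 0.333.

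Named were KDM1A, each tested variant, each tested member of 5 CPM or more in either group, the 6 members of smallest p in each direction, and up to 4 genes of smallest p in each direction from each supply list. SLBP, NPAT and CENPA were added after their values were seen, as was the remaining tested set of members. The members, the classes and all gene lists were chosen with earlier results of these data known.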

Additional observations from a re-analysis of the deposited data

How the results depend on the processing

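KDM1A and 11 of the 15 called members kept their direction and their call in every one of the 14 other fits that tested them. Signs changed in 3 of 622 single-gene values, for HIST1H2BJ (log2 fold changes between −0.95 and 0.25 with 1 library left out) and HIST2H2BF (between −0.0353 and 0.39), which were never called. Calls of H2AFJ, H2AFX and HIST1H2BC were lost under DESeq2 (adjusted p = 0.13, 0.065 and 0.24). Counts of members called higher were between 3 and 5 with 1 library left out, against 5, and counts called lower between 8 and 10, against 10. Variant members called higher were between 2 and 4, against 4: H2AFX and H2AFZ were lost without KDM1A shRNA library 2. Replication-dependent members called higher numbered 2 with no filter on low counts, which added HIST1H2AB, and 0 with a mean of 5 CPM or more, which left HIST1H3B untested, against 1. Those called lower numbered 8 with no filter on low counts, against 6, so that some of them lay outside the list of 6. Under DESeq2 those called lower numbered 5. The summed variant log2 ratio was −0.0349 with upper quartile scaling, against −0.0091, and between −0.0225 and 0.0042 with 1 library left out. The cause of these shifts was not tested beyond the construction of each setting.

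Library numbers are shared between the groups, but deviations of same-numbered libraries correlated at 0.02 over 14012 genes, so the numbers are not taken as pairs. With a replicate block, 3978 genes were called higher and 4164 lower, against 3828 and 4033, and no call of a member changed. A count of 3 reads, 0.111 to 0.126 CPM, limits what can be said of the 61 untested replication-dependent members.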
